A study of Mus musculus with 6 samples.

Results

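The activity-regulated effector programme of neurons was examined in the aging mouse cortex through 10 genes: Arc, Npas4, Bdnf, Nptx2, Homer1, Vgf, Nrn1, Inhba, Ptgs2 and Pcsk1. They were taken by their symbols, which gave 10 of the 55421 genes in the deposited files, and all 10 passed the filter on low counts. RNA-seq had been carried out on the whole cerebral cortex of wild-type male C57BL/6J mice, 3 mice of 6 months (mice 10, 11 and 17) and 3 of 24 months (mice 2, 4 and 5). All of the mice ate a standard diet and were anesthetized with isoflurane before cervical dislocation, and the labels give WT as the genotype and the anesthesia as the treatment of every mouse. The question put to the data was whether these genes differed between young adult and old adult cortices, and by how much they varied between mice of the same age.

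When a neuron fires strongly, calcium enters the cell and kinases activate transcription factors such as CREB, which binds the cyclic AMP response element (CRE) in promoters. A first wave of transcripts follows within minutes, many of which encode transcription factors such as FOS and EGR1. Effector genes encode the proteins that act at synapses: scaffolds, secreted growth factors, and the enzymes that make or process released signals. In the cortex several of these genes have a basal level as well, set by ongoing network activity.

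Promoter sequences are shown for the members in which the core of the CRE, TGACG, was found, because this element is the one most often tied to induction by activity. They came from RefSeq on GRCm38.p6, as windows of 300 bases from 250 before to 50 after each annotated start, and the table held 13 promoters of 6 members (Ptgs2, Bdnf, Inhba, Pcsk1, Homer1 and Npas4), with 7 for Bdnf and 2 for Homer1. Arc, Nptx2, Vgf and Nrn1 were not analysed here in this respect. Each line is written 5′ to 3′ on the strand of the gene, with TGACG or its reverse complement CGTCA in capitals, and the complete palindrome TGACGTCA in capitals for Pcsk1. Bdnf is shown at the third of its 7 starts by coordinate. The Npas4 and Ptgs2 sites, 30 bases each, lie in annotated exons, the Npas4 site upstream of the RefSeq start and the Ptgs2 site just after it.
Pcsk1, chr13:75089726-75089825, plus strand: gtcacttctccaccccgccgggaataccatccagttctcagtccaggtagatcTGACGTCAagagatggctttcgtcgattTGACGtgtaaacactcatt
Homer1, chr13:93303657-93303756, plus strand: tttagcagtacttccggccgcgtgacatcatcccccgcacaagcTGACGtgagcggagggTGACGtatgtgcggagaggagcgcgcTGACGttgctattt
Bdnf, chr2:109692336-109692435, plus strand: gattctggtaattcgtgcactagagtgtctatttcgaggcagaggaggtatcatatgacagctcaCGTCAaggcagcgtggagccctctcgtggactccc
Npas4, chr19:4990129-4990158, minus strand: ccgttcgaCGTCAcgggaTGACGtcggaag
Ptgs2, chr1:150100031-150100060, plus strand: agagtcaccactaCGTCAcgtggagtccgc

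The core TGACG, searched on both strands, was present in 5 of the 13 promoters, against 20.8% of the 32851 promoters of the table. These promoters belonged to 5 of the 6 members, and no share per gene was taken over the table. In Homer1 it occurred 3 times, at -56, -40 and -14 from the start. In Pcsk1 the palindrome TGACGTCA, which was held by 1.79% of all promoters and counts as a core on each strand, lay at -78, and a further core lay at -50. A second motif, TCGTG, which is the core that NPAS4 itself is known to bind with its partner ARNT2, occurred in 3 of the 7 Bdnf promoters and in no promoter of the other 5 members, against 16% of all promoters. The AP-1 motif TGANTCA occurred in 1 promoter, of Bdnf, against 7.81% of all. These matches describe letters in a window and not binding.

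The libraries held 29495379 to 36494240 counts each. Counts were scaled by the trimmed mean of M-values (TMM) and are given as CPM, counts scaled to a common library size, and the false discovery rate (FDR) is the Benjamini-Hochberg adjusted p of the edgeR quasi-likelihood test over the 32905 genes tested. At the study's threshold of 1% FDR this test called 0 genes of all those tested, with 10097 at an unadjusted p under 0.05, whereas the exact test of edgeR called 1122, its likelihood ratio test 1703 and DESeq2 278. The 24-month libraries had more genes with at least 1 count (40208 to 43561, against 33974 to 35651) and larger TMM factors (1.04 to 1.10, against 0.921 to 0.946). From 6 to 24 months the log2 fold change had a median of 0.15 in the whole table tested and of -0.14 among the 15762 genes with a mean of at least 1 CPM, called expressed genes here. With library totals in place of TMM these medians were 0.34 and 0.05, so the fold changes below are to be read against them. Markers of excitatory neurons summed to 2990 to 3230 CPM at 6 months and 2390 to 2730 CPM at 24 months, as in cortex. In bulk tissue, fewer cells of a type and less RNA per cell cannot be told apart.

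On the TPM scale, which corrects for gene length, the mean levels over the 6 mice ran from 799 for Arc through 239 for Nrn1, 146 for Vgf, 58.3 for Nptx2, 53.9 for Homer1, 50 for Npas4, 34.8 for Pcsk1, 33.4 for Bdnf and 14.5 for Ptgs2 to 7.99 for Inhba. Arc was thus the 129th most abundant transcript of the cortex and Inhba the 10515th. Arc ranged from 193 TPM in a 24-month cortex to 1380 TPM in another, so its range held that of Nrn1, which was 211 to 272 TPM. Nrn1 stood above Vgf in all 6 mice, whereas Nptx2, Homer1 and Npas4 changed places from mouse to mouse. Pcsk1 stood above Bdnf in every mouse except 24-month mouse 2, where they were at 33.1 and 51.8 TPM.

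None of the 10 genes differed between the ages at 1% FDR, by the quasi-likelihood, exact or likelihood ratio tests of edgeR or by DESeq2. At 10% FDR, 1 of the 10 was lower at 24 months (Pcsk1) and none was higher, where 18.4% of all genes tested passed in either direction, 8.33% lower and 10.0% higher. Among expressed genes, to which all 10 belong, 19.7% passed, 17.3% lower and 2.43% higher. At an unadjusted p under 0.05 the count was 2 (Nrn1 and Pcsk1), both lower, against 30.7% of all genes and 31.1% of expressed genes. Of the 10, 7 had a fitted value lower at 24 months, and their median log2 fold change of -0.16 lay close to the -0.14 of expressed genes. With library totals 4 of the 10 were lower and the median was 0.04.

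**Figure D1:**
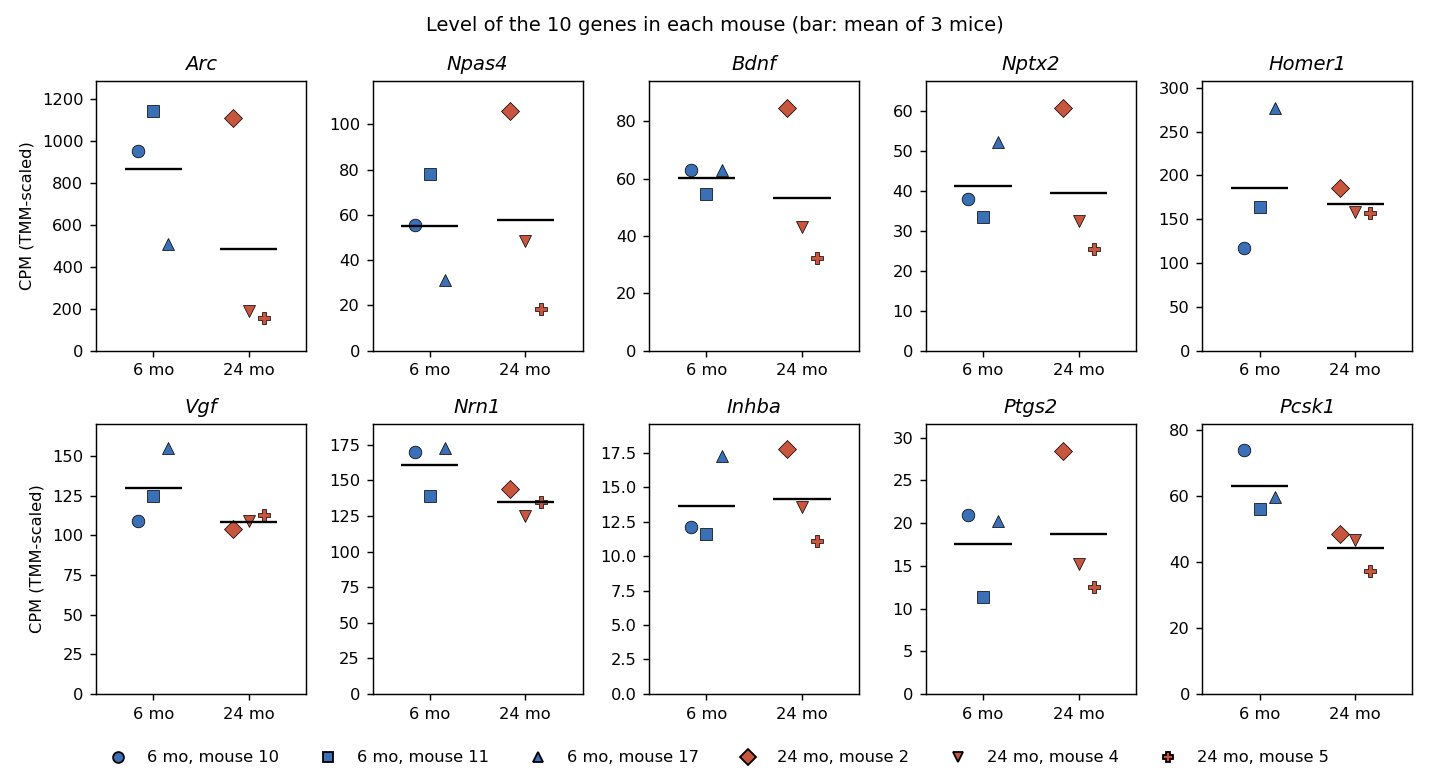
Level of each of the 10 genes in CPM (TMM-scaled, linear axes from 0) in the 3 mice of 6 months (blue) and the 3 of 24 months (red), with a symbol for each mouse and a bar at the mean. In 24-month mouse 2 (diamond) Arc was at 1110 CPM, against 187 and 155 CPM in mice 4 and 5, and the 3 values of Pcsk1 at 24 months lay under the 3 at 6 months.

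Arc (ENSMUSG00000022602.14, chr15:74669083-74672570, minus strand) encodes a protein of dendrites that promotes the removal of AMPA receptors from synapses. Its level was 950, 1140 and 508 CPM in 6-month mice 10, 11 and 17 and 1110, 187 and 155 CPM in 24-month mice 2, 4 and 5. Thus 24-month mouse 2 had the second highest level of all mice, while mice 4 and 5 lay under every young mouse. The means were 864 ± 322 and 484 ± 542 CPM (SD, n = 3 each), and the log2 fold change was -0.84 (SE 0.64, 95% interval -2.27 to 0.59, FDR 0.394). Mouse 2 carried 5.92 and 7.17 times the levels of its 2 age mates. Without it the log2 fold change of Arc was -2.33 (SE 0.31, FDR 0.0661), and without any other mouse it lay between -1.11 and -0.41.

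Npas4 (ENSMUSG00000045903.9, chr19:4984355-4990316, minus strand), the transcription factor among the 10 and one that is induced in neurons chiefly by calcium entry, followed a similar order in the old mice. It was at 55.4, 78.3 and 31.2 CPM in mice 10, 11 and 17 and at 106, 48.5 and 18.6 CPM in mice 2, 4 and 5. The highest and the lowest of the 6 values both belonged to 24-month mice, 5.72-fold apart, and the ages overlapped. The means were 54.9 ± 23.6 and 57.8 ± 44.6 CPM, with a log2 fold change of 0.07 (SE 0.51, 95% interval -1.07 to 1.21, FDR 0.940). Without mouse 2 the value of Npas4 was -0.70 (FDR 0.343).

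Homer1 (ENSMUSG00000007617.18, chr13:93299635-93405129, plus strand) encodes scaffold proteins that tie metabotropic glutamate receptors to the postsynaptic density, and its short form Homer1a is induced by activity. The counts are per gene over 12 annotated transcripts, so short and long forms could not be separated. Homer1 was at 117, 164 and 277 CPM in mice 10, 11 and 17 and at 186, 158 and 157 CPM in mice 2, 4 and 5. The spread was in the young mice, where mouse 10 had the lowest and mouse 17 the highest value of all, and the 3 old mice lay between them. The means were 186 ± 82.0 and 167 ± 16.5 CPM, and the log2 fold change was -0.15 (SE 0.25, 95% interval -0.71 to 0.40, FDR 0.702). It was 0.25 without 6-month mouse 17.

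Among the secreted ligands, Bdnf (ENSMUSG00000048482.14, chr2:109674700-109727007, plus strand) encodes the brain-derived neurotrophic factor that signals through TrkB. Its level was 63.2, 54.6 and 62.9 CPM in mice 10, 11 and 17 and 84.5, 43.3 and 32.3 CPM in mice 2, 4 and 5. The young mice were close together, whereas mouse 2 was above all of them and mice 4 and 5 below all of them. The means were 60.2 ± 4.87 and 53.4 ± 27.5 CPM, with a log2 fold change of -0.17 (SE 0.28, 95% interval -0.80 to 0.45, FDR 0.701). With library totals the value was 0.03. Without mouse 2 it was -0.66 (SE 0.14, FDR 0.109), and without 24-month mouse 5 it was 0.09. Of the exonic bases of Bdnf, 14.4% (896) overlap those of Gm45346, and the counting options that the methods list as changed from their defaults hold no strand setting, so reads there cannot be assigned with certainty.

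Inhba (ENSMUSG00000041324.14, chr13:16011851-16031621, plus strand), which encodes the subunit of activin A, had the lowest level of the 10. It was at 12.1, 11.6 and 17.3 CPM in mice 10, 11 and 17 and at 17.8, 13.6 and 11.1 CPM in mice 2, 4 and 5. The 2 ages covered nearly the same range, and mouse 2 was again the highest of the old mice. The means were 13.7 ± 3.16 and 14.2 ± 3.41 CPM, and the log2 fold change was 0.05 (SE 0.20, 95% interval -0.41 to 0.50, FDR 0.896). Genes of sensory receptors, 1545 in number and mostly silent in cortex, had 0.0223 to 0.0251 CPM per kilobase at 6 months and 0.0532 to 0.0857 at 24 months, which over the exons of Inhba amounts to at most 0.548 CPM.

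Nptx2 (ENSMUSG00000059991.7, chr5:144545902-144557478, plus strand) encodes a secreted pentraxin that gathers AMPA receptors on inhibitory interneurons. Its level was 38.1, 33.4 and 52.3 CPM in mice 10, 11 and 17 and 60.8, 32.6 and 25.4 CPM in mice 2, 4 and 5. Mouse 2 had the highest of the 6 values and its age mates the 2 lowest. The means were 41.3 ± 9.82 and 39.6 ± 18.7 CPM, with a log2 fold change of -0.06 (SE 0.29, 95% interval -0.70 to 0.58, FDR 0.902). With library totals the value was 0.14. Without mouse 2 it was -0.50 (FDR 0.170), and without mouse 5 it was 0.18.

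Vgf and Nrn1 had the tightest levels of the members among the old mice. Vgf (ENSMUSG00000037428.14, chr5:137026392-137033351, plus strand), the precursor of several secreted neuropeptides, was at 109, 125 and 155 CPM in mice 10, 11 and 17 and at 104, 109 and 113 CPM in mice 2, 4 and 5. It was the member in which mouse 2 was not above its age mates but below both. The means were 129 ± 23.4 and 109 ± 4.93 CPM, and the log2 fold change was -0.25 (SE 0.13, 95% interval -0.53 to 0.03, FDR 0.204). Nrn1 (ENSMUSG00000039114.16, chr13:36725361-36735131, minus strand), which encodes neuritin, a surface-anchored protein that promotes growth of neurites, was at 170, 139 and 173 CPM in the young mice and at 144, 125 and 135 CPM in mice 2, 4 and 5. Young mouse 11 lay under old mouse 2, so the ages overlapped by these 2 mice. The means were 161 ± 19.0 and 134 ± 9.40 CPM, with a log2 fold change of -0.26 (SE 0.11, 95% interval -0.50 to -0.01, FDR 0.145). Nrn1 shares 22.3% of its exonic bases (501) with Fars2, and reads from the shared stretch cannot be told apart without strand.

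The remaining members encode enzymes. Ptgs2 (ENSMUSG00000032487.8, chr1:150100031-150108227, plus strand), the inducible cyclooxygenase that starts prostaglandin synthesis, was at 21.0, 11.4 and 20.3 CPM in mice 10, 11 and 17 and at 28.4, 15.2 and 12.5 CPM in mice 2, 4 and 5. Mouse 2 had the highest and young mouse 11 the lowest value. The means were 17.6 ± 5.38 and 18.7 ± 8.50 CPM, and the log2 fold change was 0.09 (SE 0.31, 95% interval -0.60 to 0.78, FDR 0.861). It was -0.33 without mouse 2.

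Pcsk1 (ENSMUSG00000021587.5, chr13:75089826-75134861, plus strand) encodes the prohormone convertase PC1/3, which cuts neuropeptide precursors, that of Vgf among them. Its level was 73.9, 56.1 and 59.6 CPM in mice 10, 11 and 17 and 48.6, 46.7 and 37.2 CPM in mice 2, 4 and 5. All 3 old mice lay under all 3 young mice, and Pcsk1 was the member of which this was true, where 16.3% of all genes tested and 32.5% of those with a mean of at least 1 CPM lay so. No member lay wholly above the young mice, as 20.0% of all genes and 5.32% of expressed genes did. The means were 63.2 ± 9.43 and 44.2 ± 6.09 CPM, with a log2 fold change of -0.52 (SE 0.14, 95% interval -0.82 to -0.21, FDR 0.0615). Leaving out any 1 mouse gave fitted values between -0.58 and -0.39. Pcsk1 was past 10% FDR without mouse 17 or mouse 5, in fits that called 2476 and 7998 genes of the whole table. It was not without mouse 10, 11, 2 or 4, in fits that called 0, 1, 176 and 0 genes of the whole table. Passing 10% FDR in these fits thus depended on the whole table as well as on Pcsk1. With library totals it was -0.32, the ages overlapped and the gene was no longer past 10% FDR, nor was it with TMM factors over expressed genes or with the filter of filterByExpr.

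**Figure D2:**
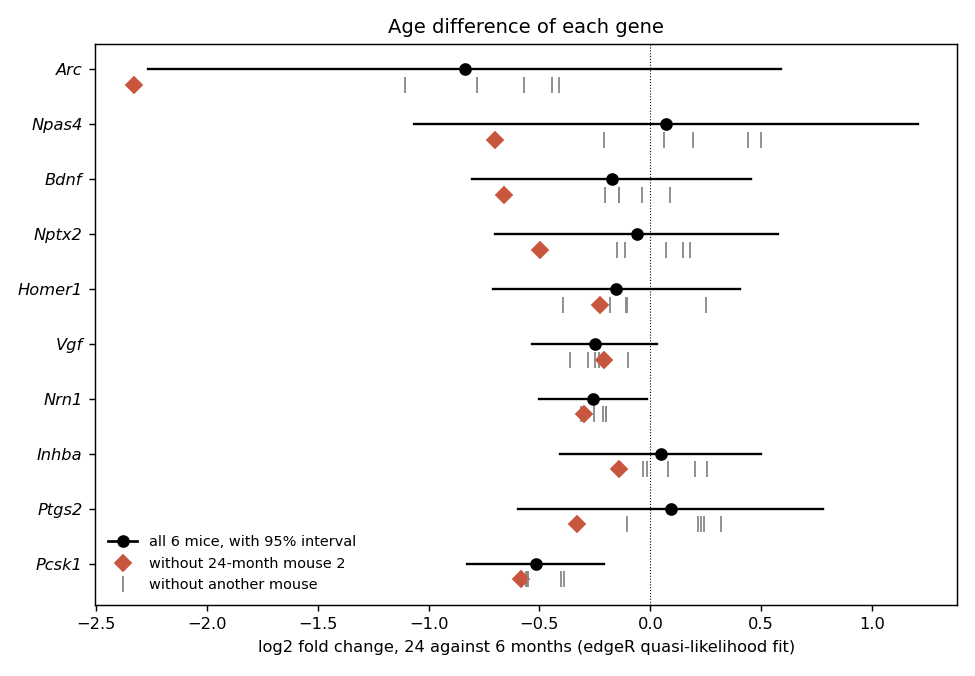
Log2 fold change of each gene from 6 to 24 months by the edgeR quasi-likelihood fit (points, with 95% intervals as bars), the value without 24-month mouse 2 (diamonds) and the values without each other mouse (ticks). For Arc the value was -0.84 with all mice and -2.33 without mouse 2, and the interval of Pcsk1, from -0.82 to -0.21, lay below 0.

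The genes differed widely in how far mice of one age lay apart. The SD of log2 CPM among the old mice was 1.57 for Arc and 1.26 for Npas4, in each case larger than in 99.9% of the genes with a mean of at least 1 CPM, and 0.71 for Bdnf, larger than in 98.3%. Nptx2 (0.65, larger than in 97.4%) and Ptgs2 (0.62, 97.0%) came next. At the other end, Vgf (0.07) and Nrn1 (0.10) varied less among old mice than the median gene, whose SD was 0.16. Among young mice their SDs were 0.26 and 0.18, larger than in 78.4% and 64.9% of these genes. The young mice also differed in Npas4 (0.67, larger than in 97.3%), Homer1 (0.63, 96.6%) and Arc (0.61, 96.4%), but not in Bdnf (0.12, larger than in 47.4%). The SD was larger at 24 than at 6 months in 6 of the 10 genes, and in 58.0% of all expressed genes. With 3 mice at each age, no test of these SDs was made.

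**Figure D3:**
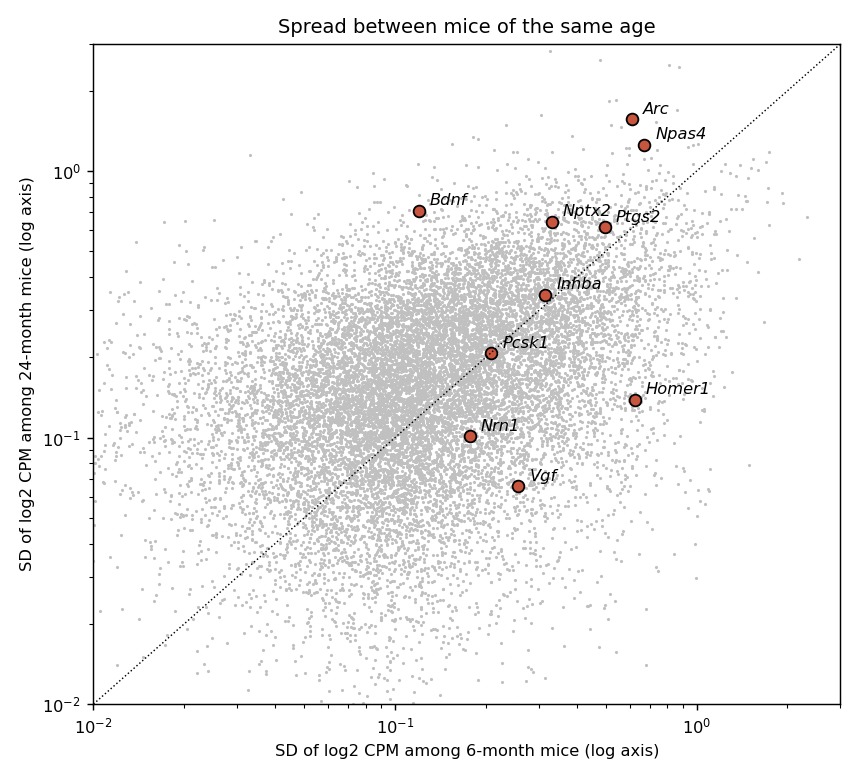
SD of log2 CPM among the 3 mice of 6 months (x, log axis) and of 24 months (y, log axis) for genes with a mean of at least 1 CPM (grey) and the 10 genes (red), with a dotted line at equal SDs. Genes with SDs under the start of an axis are not drawn. Arc and Npas4 had SDs of 1.57 and 1.26 at 24 months, while Homer1 had 0.63 at 6 and 0.14 at 24 months.

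The order of the mice recurred from gene to gene. Among the old mice, mouse 2 was above mice 4 and 5 in 9 of the 10 genes, and mouse 4 above mouse 5 in 8. Mouse 2 was the highest of all 6 mice in 5 genes (Npas4, Bdnf, Nptx2, Inhba and Ptgs2), and mouse 5 was the lowest in 6. Among the young mice, mouse 17 was the highest of its age in 5 genes but the lowest in Arc and Npas4. Each order was read from the same 6 libraries, so the genes are not independent counts of it.

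Because mouse 2 was the highest old mouse in 9 of the 10 genes, leaving it out lowers their fitted values by construction, and the values without it are a description of how far they rest on that mouse. With mouse 2 left out, all 10 genes had a fitted value lower at 24 months, and their log2 fold changes had a median of -0.41. The median was -0.18, -0.19 and -0.12 without mouse 10, 11 and 17, and -0.07 and -0.009 without mouse 4 and mouse 5. At an unadjusted p under 0.05, 5 were then lower (Arc, Bdnf, Nptx2, Nrn1 and Pcsk1), against 11.9% of the 30062 genes tested. The same number lay wholly under the young mice, against 21.0% of those genes, and 1 (Arc) passed 10% FDR, as 0.346% of genes did in that direction. These shares cover all genes tested, and no share of expressed genes was taken in this fit. With all mice kept, 32.5% of expressed genes lay wholly under the young mice, against 16.3% of all genes tested. Pcsk1 had an FDR of 0.11 in that fit.

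Markers of several cell types also set mouse 2 apart. All 6 oligodendrocyte markers were lowest in mouse 2, and their summed level was 2930, 3720 and 2370 CPM in mice 10, 11 and 17 and 1260, 3050 and 4050 CPM in mice 2, 4 and 5. Endothelial markers summed to 139, 148 and 151 CPM in the young mice and to 94.1, 146 and 180 CPM in mice 2, 4 and 5. Inhibitory neuron markers summed to 837, 835 and 787 CPM in the young mice and to 579, 691 and 797 CPM in mice 2, 4 and 5. Of these 6 markers, 4 were lowest in mouse 2 and 1 was highest in it. The summed levels of red blood cell markers (57.0 CPM) and meningeal fibroblast markers (34.2 CPM) were also lowest in mouse 2. Excitatory neuron markers did not stand out in mouse 2, with 2500 CPM against 2390 and 2730 CPM in mice 4 and 5. Nor did astrocyte markers, with 3520 CPM against 3430 and 3510 CPM. The part of these differences in the levels of the 10 genes was not tested.

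The lists around the 10 genes held their receptors and binding partners, other effectors of neuronal activity, and the transcription regulators of the first wave. The partners were lower at 24 months in 7 of 27 genes at 10% FDR and higher in 2, where 17.3% of expressed genes were lower and 2.43% higher, and their median log2 fold change was -0.20, against -0.14 for expressed genes. For the Bdnf receptor TrkB, Ntrk2 was at 568, 640 and 566 CPM in the young mice and at 450, 455 and 507 CPM in mice 2, 4 and 5 (log2 fold change -0.33, SE 0.09, FDR 0.0644). For a metabotropic glutamate receptor that Homer proteins bind, Grm5 was at 339, 322 and 322 CPM and then at 196, 212 and 252 CPM (-0.57, SE 0.11, FDR 0.0518). Of the Nptx2 partners, the related pentraxin Nptx1 had a log2 fold change of -0.51 (FDR 0.0610) and the AMPA receptor subunit Gria4 one of -0.35 (FDR 0.0924). The activin receptor Acvr1b (-0.40, FDR 0.0687) and the second prohormone convertase Pcsk2 (-0.32, FDR 0.0930) were also lower.

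Mouse 2 was the highest of the old mice in none of these partners, and Ntrk2, Nptx1, Gria4, Grm5 and Acvr1b were lowest in it. They were named for being lower at 24 months at 10% FDR, which a high value in mouse 2 works against. No contrast with the members can therefore be drawn from them. Over all 27 partners, mouse 2 was the highest of all mice in 5 and the lowest in 10. The 2 partners that were higher at 24 months were Homer3 (log2 fold change 0.50, SE 0.16, FDR 0.0785), a related scaffold, and the prostaglandin E2 receptor Ptger2 (0.93, SE 0.30, FDR 0.0841), the latter with a mean of 0.580 CPM. Ngfr, the low-affinity neurotrophin receptor, had the next largest positive value among partners with a mean of at least 1 CPM, 0.45 (FDR 0.321). With library totals 1 of the 27 partners, Grm5, remained lower at 10% FDR, and the median was -0.01. No partner was lower at 10% FDR once mouse 10, 11, 2 or 4 was left out, in fits that called 0 to 176 genes of the whole table, and 2 and 8 were without mouse 17 and mouse 5.

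Of 18 other effectors, 8 were lower at 24 months at 10% FDR and none was higher, where 17.3% of expressed genes were lower, and their median log2 fold change was -0.42, against -0.14 for expressed genes. Of the excitatory neuron markers 3 of 6 were lower at 10% FDR as well, with a median of -0.30, and their part in the levels of the effectors was not tested. The largest fall was in Rgs4, a brake on G protein signalling, which was at 1690, 1460 and 1380 CPM in the young mice and at 903, 817 and 1060 CPM in mice 2, 4 and 5 (-0.70, SE 0.12, FDR 0.0518). Scg2 and Penk, which encode precursors of secreted peptides, fell by 0.41 (FDR 0.0567) and by 0.57 (FDR 0.0624) on the log2 scale, while Adcyap1, another such precursor, named for comparison after its values were seen, had a value of -0.31 with overlapping ages (FDR 0.500). The others past 10% FDR were the kinase gene Plk2 (-0.46, FDR 0.0622), Arl5b (-0.51, FDR 0.0591), the protease gene Plat (-0.43, FDR 0.0553), the sorting receptor gene Sorcs3 (-0.40, FDR 0.0552) and Rheb (-0.30, FDR 0.0919), a small GTPase gene upstream of mTOR. Plk3 had a value of -0.68 (FDR 0.112), and the largest positive values were those of Pim1 (0.54, FDR 0.231) and Amigo3 (0.20, FDR 0.587). At an unadjusted p under 0.05, 11 of the 18 were lower and 0 higher, against 13.1% and 17.6% of all genes tested. Among expressed genes, to which all 18 belong, 31.1% passed in either direction, and that share was not split by direction. With library totals Rgs4 was the effector that passed 10% FDR, and the median was -0.23. The count of 8 became 0 without mouse 10, 11 or 4, in fits that called 0, 1 and 0 genes of the whole table. It became 3 without mouse 2, 5 without mouse 17 and 7 without mouse 5, where 176, 2476 and 7998 genes were called.

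None of 14 transcription regulators passed 10% FDR in the quasi-likelihood fit, and 1, Egr1, had an unadjusted p under 0.05. The exact and likelihood ratio tests each called 1 at 10% FDR. The fitted value was lower at 24 months in 12 of the 14, and the median was -0.37. Egr1 was at 731, 899 and 508 CPM in the young mice and at 625, 257 and 188 CPM in mice 2, 4 and 5 (log2 fold change -0.998, SE 0.38, FDR 0.117), and Nr4a2 had a value of -0.87 (SE 0.62, FDR 0.365). The largest positive values were those of Maff (0.52, FDR 0.381) and Fosb (0.15, FDR 0.749). Mouse 2 was the highest of all mice in 10 of the 14, and the lowest value fell in mouse 5 in 10 and in mouse 4 in 4. Leaving out mouse 2 therefore lowers their fitted values by construction: all 14 were then lower, with a median of -1.30, and 5 passed 10% FDR, where 0.346% of all genes were lower at that threshold. Without any other mouse 0 of the 14 were lower at 10% FDR. Over the whole table those fits called 0, 1 and 0 genes at that threshold without mouse 10, 11 and 4. They called 2476 without mouse 17 and 7998 without mouse 5.

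**Figure D4:**
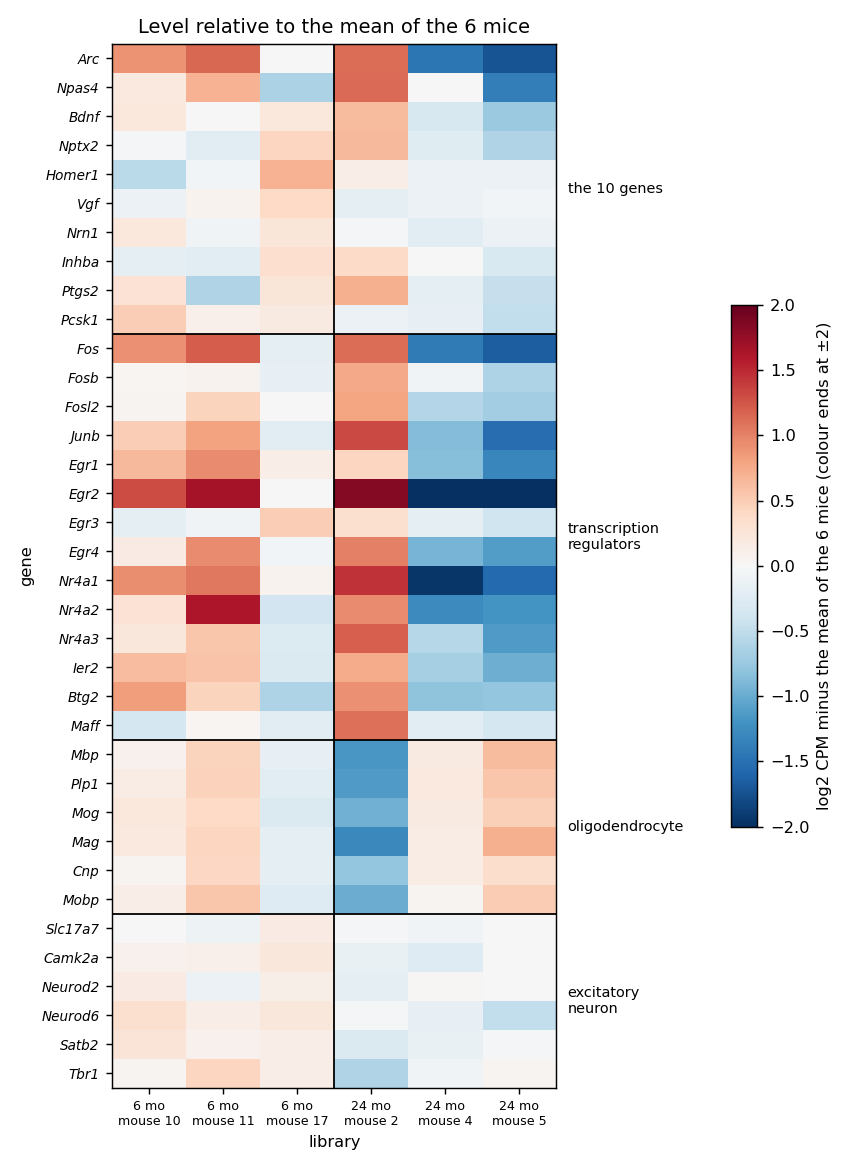
Log2 CPM of each gene minus its mean over the 6 mice (colour, ending at ±2) in the 10 genes, the 14 transcription regulators and the markers of oligodendrocytes and excitatory neurons. In 24-month mouse 2 Arc, Npas4 and 10 of the 14 regulators were near or at their highest while all 6 oligodendrocyte markers were at their lowest.

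Likeness between genes was measured as the root mean square difference of their centred log2 CPM over the 6 mice, among the 15762 genes with a mean of at least 1 CPM. The gene nearest to Arc was Fos, at 0.0845, where the size of the Arc pattern itself was 1.19. Fos was at 109, 134 and 51.0 CPM in the young mice and at 125, 21.8 and 18.5 CPM in mice 2, 4 and 5, which is the same order of mice as for Arc. Nr4a1 (0.255) and Junb (0.351) followed, and 11 of the 14 transcription regulators were among the 50 genes nearest to Arc. For Npas4 the nearest were Nr4a3 (0.301), Gm16299 (0.351) and Gadd45g (0.373), and 7 regulators were among the 50 nearest.

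Bdnf was nearest to Nnmt (0.0358), Rxrg (0.106) and Myh7 (0.125), and 1 regulator was among its 50 nearest genes. Among the members themselves, Bdnf and Nptx2 were close (0.174), each within the 12 nearest genes of the other, and Nptx2 was the 20th nearest gene to Ptgs2. Homer1, Vgf, Nrn1, Inhba and Pcsk1 had no other member and no transcription regulator among their 50 nearest. The distance is not scaled by the size of a pattern, which was 0.173 to 0.371 in these genes, against 1.19 for Arc. Vgf and Nrn1 were 0.182 apart, yet Nrn1 was the 3122nd nearest gene to Vgf, and Vgf the 5456th nearest to Nrn1. Places by this distance therefore depend on size as well as on the order of mice. All of these distances share the same 6 libraries, and they carry no test.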

How the data were processed

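Total RNA of frozen, powdered cortex was made into libraries with a low-input kit and sequenced by the authors, who trimmed the reads (Trim Galore 0.6.4), mapped them to GRCm38 (STAR 2.7.3a) and counted them on exons per gene (featureCounts of Subread 2.0.0). Read counts and TPM values of 55421 genes were deposited separately for every mouse. The deposited counts held whole numbers although fractional counting of multi-mapped reads is stated, and were used as they are. The deposited TPM values gave levels per length only. Symbols came from the TPM files. Rows were paired by position, and the identifiers were looked up in GENCODE vM21, which held 55240 of them. Of these, 49731 had the same symbol there as in the paired row. The methods name vM23.

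The test was run in edgeR 4.0.16 (R 4.3.3) on 32905 genes, those whose counts summed to 10 or more in the 6 libraries together, with TMM factors, the quasi-likelihood test without covariates and Benjamini-Hochberg adjustment. The study names edgeR and 1% FDR but no test within it. SEs are the fold change over the root of F. Log2 CPM for SDs and likeness used a prior count of 2. The fits were tested on simulated data. Alternatives were the exact and likelihood ratio tests, DESeq2 1.42.0, its size factors, library totals, TMM factors over expressed genes, 2 other filters and the omission of each mouse.

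The members and lists were chosen with earlier results of these data known. Named list genes are those past 10% FDR and the 2 largest rises and falls at a mean of at least 1 CPM, with the 3 genes nearest to Arc, Npas4 and Bdnf. A partner gene that this rule names is not reported here, though it stays in the counts. Replicates are separately numbered mice of 1 age, and p-values set the age difference against the spread between these mice as each fit estimated it.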

Additional observations from a re-analysis of the deposited data

How the results depend on the processing

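No member passed 1% FDR under any alternative. The genes called at 1% FDR over the whole table numbered 0 with the quasi-likelihood test, 1122 with the exact test, 1703 with the likelihood ratio test, 278 with DESeq2, 42 with genes of at least 1 count, and 0 to 13 with each mouse left out. With library totals, with TMM factors over expressed genes and with filterByExpr, 0 members passed 10% FDR, and 1 partner and 1 other effector were lower. With library totals 0 members lay wholly below the young mice. With genes of at least 1 count 4 partners were lower, and this setting, the exact test and the likelihood ratio test each gave 1 transcription regulator. With each mouse left out, the whole table held 0 to 7998 genes past 10% FDR. Members past 10% FDR then numbered 0 to 1, members wholly below 1 to 5, partners lower 0 to 8, other effectors lower 0 to 7 and regulators lower 0 to 5. These list counts under the alternatives were added after the data were seen. Log2 fold changes that turned were those of Bdnf (0.032), Nptx2 (0.143) and Homer1 (0.038) with library totals, Nptx2 (0.105) and Homer1 (0.002) with TMM factors over expressed genes, and Nptx2 (0.064) with filterByExpr. With a mouse left out the ranges were -0.14 to 0.25 for Inhba, -0.33 to 0.32 for Ptgs2, -0.70 to 0.50 for Npas4, -0.50 to 0.18 for Nptx2, -0.40 to 0.25 for Homer1 and -0.66 to 0.09 for Bdnf. Arc, Vgf, Nrn1 and Pcsk1 kept a negative value in every setting run. The causes of these shifts were not tested. No paired analysis was possible because the 2 ages share no mouse numbers. The members had 374 counts or more in every library, so counting error was small beside the spread between mice.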
